A study of Mus musculus with 10 samples.

Results

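Glypicans and syndecans are 2 families of cell-surface proteoglycans that carry heparan sulfate (HS) chains, and their 10 mouse genes (*Gpc1* to *Gpc6* and *Sdc1* to *Sdc4*) were taken from the 52227 genes of a count table by their symbols. The table holds RNA-seq counts from the cortical hem (CH), the signaling center at the medial edge of the embryonic cortex, cut out by laser capture at e13.5. There were 5 libraries of wild-type embryos and 5 of *Lmx1a-/-* embryos, with the captured sections of 1 embryo pooled in each library. The mutants were homozygous for *Lmx1a* drJ, a point mutation of the LIM-homeodomain transcription factor gene *Lmx1a* that is treated as a null allele and is present in every cell of the embryo, not the CH alone. The mice were kept on a mixed background of C57Bl6, FVB and CD1, and males and females were used. The comparison asks which genes of the CH differ in level when *Lmx1a* is lost.

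Glypicans are held to the outer face of the membrane by a lipid anchor, whereas syndecans span the membrane and have a short cytoplasmic tail. The HS chains of both families bind secreted Wnts, BMPs, FGFs and hedgehog proteins and help to set how far these signals spread and how well they reach their receptors. In the developing cortex the CH is the main medial source of Wnts and BMPs.

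Between 19145952 and 36462780 reads were counted on genes per library. A minimum of 10 counts in 3 or more libraries left 21664 genes, which were compared by edgeR's quasi-likelihood test, with a false discovery rate (FDR) under 0.1 as the threshold, and 497 genes (2.29%) were lower and 373 (1.72%) higher in *Lmx1a-/-* CH, or 4.02% in either direction. Levels are CPM, counts scaled to the size of each library, and fold changes are log2 of *Lmx1a-/-* over wild-type with their standard error (SE). *Lmx1a* itself was at 79.8, 80.0, 45.6, 59.7 and 90.8 CPM in wild-type embryos 1 to 5 and at 89.9, 102, 122, 145 and 111 CPM in *Lmx1a-/-* embryos 1 to 5, a log2 fold change of 0.68 (SE 0.17, FDR = 0.0658). This call of *Lmx1a* held in 6 of the 10 fits without 1 embryo and was lost without wild-type embryo 1 (FDR = 0.102), wild-type embryo 4 (FDR = 0.126), *Lmx1a-/-* embryo 4 (FDR = 0.157) or *Lmx1a-/-* embryo 5 (FDR = 0.107). The counts do not tell a mutated transcript from a wild-type one. The CH genes *Wnt3a*, *Wnt8b* and *Rspo1* were present in all 10 libraries, at no less than 41.6, 599 and 374 CPM. *Xist*, a transcript of the inactive X chromosome, reached 4399 to 5169 CPM in wild-type embryos 2 to 5. In wild-type embryo 1 and in all 5 *Lmx1a-/-* embryos it was 0.163 to 1.15 CPM, and Y-linked transcripts showed the reverse. By these transcripts all mutants and wild-type embryo 1 were male and wild-type embryos 2 to 5 female, so sex differed with genotype.

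Wild-type embryo 4 stood apart. A list of 11 genes of surface epithelium (keratins, desmosome proteins and their regulators), written after this library was noticed, summed to 1830 CPM in it, between 62.9 and 240.0 CPM in the other wild-type libraries and between 16.6 and 165 CPM in the mutants. All 11 genes were highest in this library, as were 5 of the 9 glypican and syndecan genes that could be tested. The share of all genes highest in this library was not counted. Wild-type embryo 3 also differed, with the lowest wild-type sum of 11 choroid plexus genes (90.1 CPM, against 226 to 356 CPM in the rest) and the highest wild-type sum of 7 cortical neuroepithelium genes (707 CPM, against 348 to 615 CPM). Its sum of 11 CH genes (1960 CPM) was the lowest of all libraries, mutants included, and its mesenchyme and meninges sum (1120 CPM) the highest. Wild-type embryo 1 had the highest red blood cell sum (1490 CPM, against 643 to 788 CPM in the other wild-type libraries). Of 11 CH genes 5 were lower and 1 was higher (*Lmx1a* itself), and of 8 Cajal-Retzius neuron genes 4 were lower and 1 was higher. The study had already reported *Reln*, *Trp73*, *Lhx1*, *Lhx5*, *Eomes* (as *Tbr2*), *Cacna2d2*, *Car10*, *Lmo2*, *Wnt2b* and *Wnt9a* as changed in these data. The counts for the CH and Cajal-Retzius lists are therefore a description and not an independent result. Lower too were 3 of 11 choroid plexus and 3 of 14 mesenchyme and meninges genes. The 2 of 11 surface epithelium genes called lower, *Pkp1* and *Perp*, come from the list written after wild-type embryo 4 was noticed. *Pkp1* peaked in that library (40.7 CPM, 1.56 CPM or less elsewhere), as did *Perp* (85.7 CPM, 16.6 CPM or less elsewhere). Their count is therefore a description and cannot be set beside the share among all genes. Among all genes tested 2.29% were lower and 1.72% higher. The Cajal-Retzius list summed to 378 to 577 CPM in wild-type and 240.0 to 322 CPM in mutant libraries and the red blood cell list to 643 to 1490 and 268 to 581 CPM, without overlap in either. The mesenchyme and meninges list summed to between 422 and 1120 CPM in wild-type and between 341 and 603 CPM in mutant libraries, and 8 microglia genes to 14.7 to 34.6 and 19.3 to 31.3 CPM.

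Of the 9 tested family genes, 1 was higher in *Lmx1a-/-* CH (*Gpc4*) and 0 were lower, beside 1.72% and 2.29% of all genes tested. At an unadjusted p under 0.05 there were 5 of the 9, beside 16.4% of all genes. A likelihood ratio test called *Gpc3* (FDR = 0.08) and *Sdc1* (FDR = 0.091) lower, beside 3.72% of all genes, and DESeq2 called *Sdc1* (FDR = 0.0485) and *Sdc2* (FDR = 0.0374) lower, beside 4.51%. The mean was lower in the mutants for 7 of the 9 genes, and the median log2 fold change of the 9 was -0.30, beside -0.00494 for all genes. Without wild-type embryo 4 it was -0.19, beside 0.00327 for all genes. For the 4 syndecans it was -0.37 with this embryo and -0.26 without it, and for the 5 tested glypicans -0.15 and -0.07, or -0.05 without *Lmx1a-/-* embryo 4. The 5 libraries of each genotype did not overlap for *Gpc4* (higher) and *Sdc2* (lower), beside 2.17% higher, 2.27% lower and 4.44% in either direction among all genes. In a bulk sample, fewer cells of a type and less RNA per cell cannot be told apart.

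**Figure D1:**
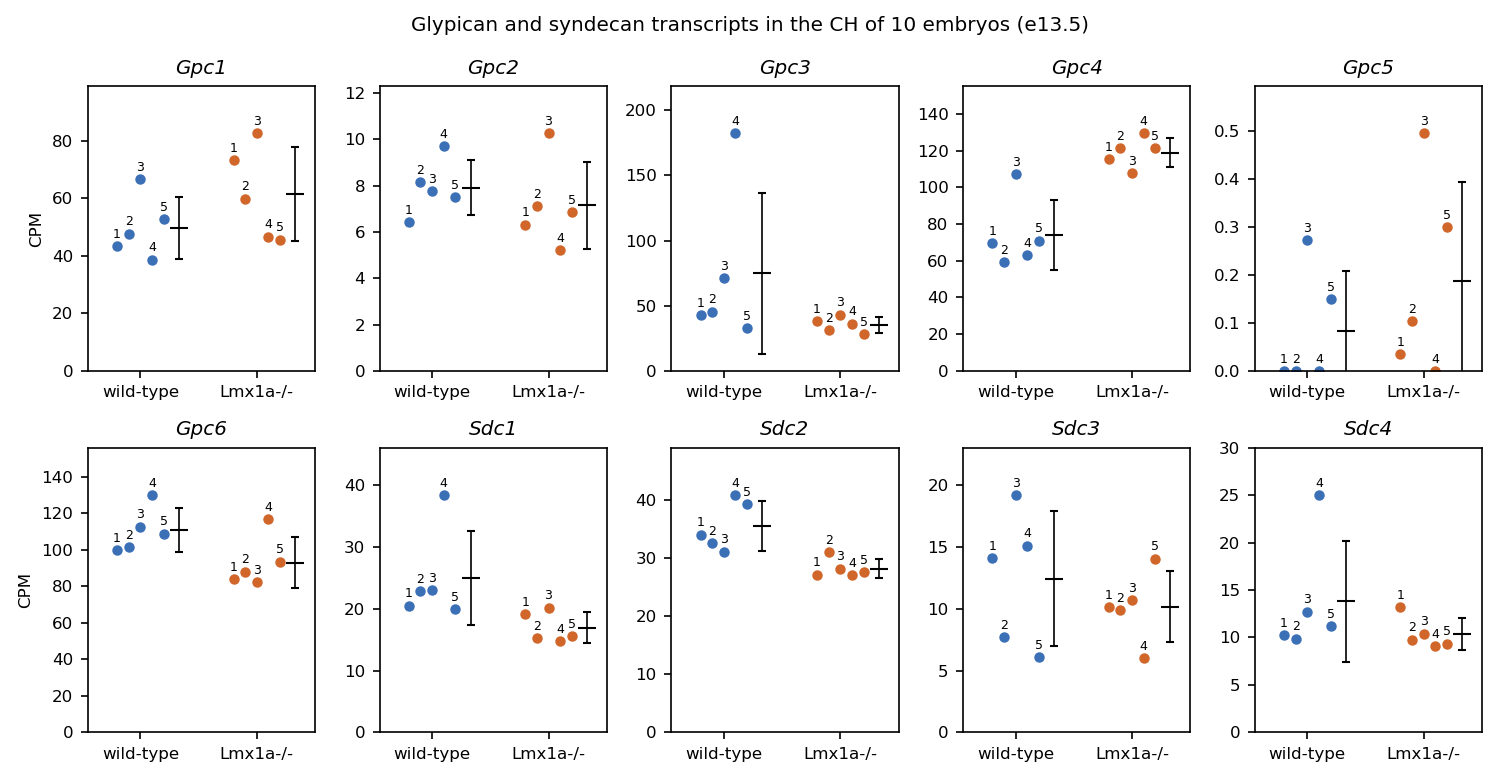
Level of each glypican and syndecan in CPM (vertical axis) in 5 wild-type (blue) and 5 *Lmx1a-/-* (orange) embryos, numbered, with black bars for the mean ± SD; *Gpc5* is in CPM before scaling. The 5 *Lmx1a-/-* libraries lie above all wild-type libraries for *Gpc4* and below them for *Sdc2*, and wild-type embryo 4 is far above the rest for *Gpc3*, *Sdc1* and *Sdc4*.

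Levels of different genes were compared per length of exon, as TPM, counts divided by exon length and scaled within each library. In wild-type CH the order by mean was *Gpc4* (62.9 ± 18.3 TPM, SD, n = 5), *Gpc3* (61.6 ± 49.0), *Gpc6* (38.6 ± 4.86), *Sdc2* (22.7 ± 3.52), *Gpc1* (21.8 ± 5.61), *Sdc1* (14.6 ± 4.12), *Sdc4* (12.1 ± 5.30), *Sdc3* (4.63 ± 2.02), *Gpc2* (4.14 ± 0.613) and *Gpc5* (0.0438 ± 0.0629). Every wild-type library of the higher gene exceeded every one of the next gene at 3 steps only, from *Gpc6* to *Sdc2*, from *Sdc4* to *Sdc3* and from *Gpc2* to *Gpc5*. Neighbours at the other steps overlapped. With the longest transcript as the length *Gpc3* (66.97 TPM) stood before *Gpc4* (56.2 TPM), but the level of *Gpc3* was carried by wild-type embryo 4. Without this embryo the mean of *Gpc3* was 40.3 TPM and that of *Gpc4* 65.7 TPM, or 43.8 and 58.7 TPM by the longest transcript. With only the exon bases that no other gene shares as the length, *Gpc2* was at 9.33 TPM and stood before *Sdc3* (5.01 TPM). The reads were not limited to these bases, so 9.33 TPM is a change of length and not a separate measurement. Summed over a family, glypican transcripts were at 189 ± 54.1 TPM in wild-type and 221 ± 19.5 TPM in *Lmx1a-/-* CH, and syndecan transcripts at 54.0 ± 11.9 and 46.7 ± 4.50 TPM. In both genotypes the glypican sum was above the syndecan sum.

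**Figure D2:**
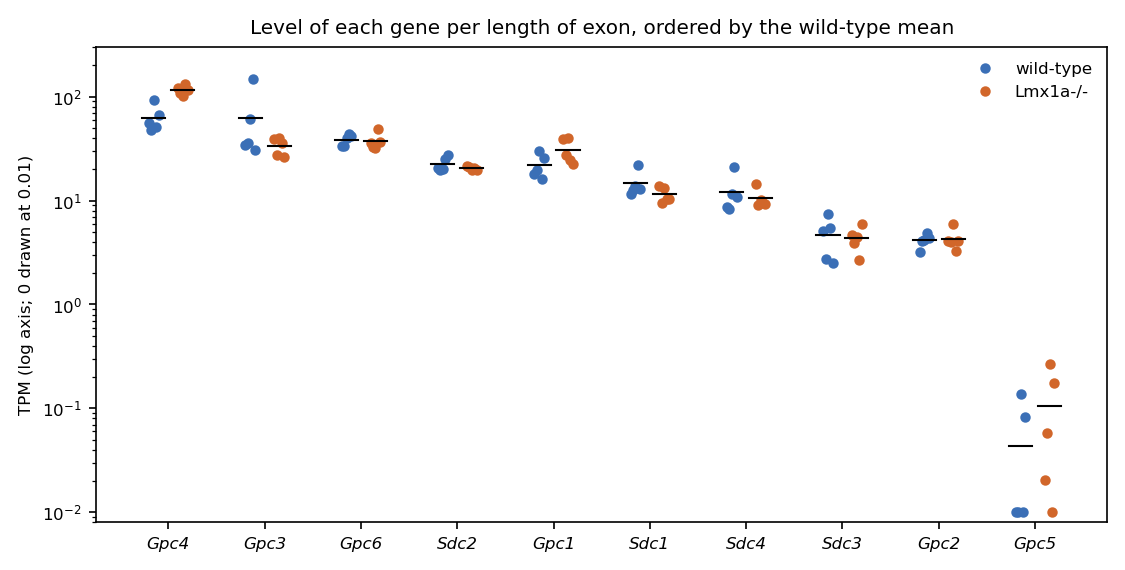
TPM of each gene (vertical axis, logarithmic) in the 5 wild-type (blue) and 5 *Lmx1a-/-* (orange) libraries, ordered by the wild-type mean (black lines). *Gpc4*, *Gpc3* and *Gpc6* head the order, with wild-type means of 62.9, 61.6 and 38.6 TPM, and *Gpc5* lies near 0.

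*Gpc4*, a glypican of neural progenitors, was the 1 family gene past the threshold. It lies on the X chromosome (GRCm38 chrX:52053021-52165252, minus strand, ENSMUSG00000031119). Its level was 69.5, 59.1, 107, 62.9 and 71.0 CPM in wild-type embryos 1 to 5 and 115, 121, 108, 129 and 121 CPM in *Lmx1a-/-* embryos 1 to 5. All mutant libraries were above all wild-type ones, although wild-type embryo 3 came close to the lowest mutant. The means of *Gpc4* were 74.0 ± 19.2 and 119 ± 7.98 CPM and the log2 fold change was 0.68 (SE 0.14, FDR = 0.0224). With any 1 embryo left out the log2 fold change of *Gpc4* was 0.61 to 0.85 and the FDR 0.000251 to 0.0645, and it passed in 10 of 10 such fits.

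The higher level of *Gpc4* came with differences in other transcripts. It did not pass with the *Xist* level as a covariate (log2 fold change 0.76, FDR = 0.397), with the choroid plexus list (0.25, FDR = 0.992) or with the surface epithelium list (0.58, FDR = 0.301). Each of these covariates itself differed between the genotypes, so its part and that of the genotype cannot be told apart. With the mesenchyme list as a covariate *Gpc4* passed (0.80, FDR = 0.07). Wild-type embryo 1, the only wild-type library with Y-linked transcripts, had 69.5 CPM of *Gpc4*, within the range of wild-type embryos 2, 4 and 5. Against this library alone the 5 mutants gave a log2 fold change of 0.77 for *Gpc4*, a value from a single wild-type library that has no replicate check. The cortical neuroepithelium list summed to between 348 and 707 CPM in wild-type and between 551 and 833 CPM in *Lmx1a-/-* libraries, with 1 of its 7 genes higher and 0 lower, and its part in the result was not tested.

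The tested genes whose levels followed *Gpc4* most closely were *Nr2e1*, *Pag1* and *Rims2*. *Nr2e1* encodes an orphan nuclear receptor of forebrain progenitors, *Pag1* a membrane adaptor of Src-family kinases and *Rims2* a protein of presynaptic active zones. Over the 10 libraries, which differ in genotype and tissue makeup, Pearson's r with *Gpc4* was 0.97 for *Nr2e1*, 0.96 for *Pag1* and 0.96 for *Rims2*, and after removal of the genotype means it was 0.90, 0.87 and 0.87. Since *Gpc4* separates the genotypes, genes chosen for following it do so too, and their levels are a description. The means in wild-type and *Lmx1a-/-* CH were 44.2 and 94.1 CPM for *Nr2e1*, 50.1 and 74.2 CPM for *Pag1* and 28.6 and 45.7 CPM for *Rims2*.

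*Gpc3*, a glypican that restrains embryonic growth and binds hedgehog proteins, lies next to *Gpc4* on the same strand (chrX:52272426-52613950), with 107173 bases between the 2 genes. Its level was 42.6, 45.5, 71.4, 182 and 33.1 CPM in wild-type embryos 1 to 5 and 38.4, 31.1, 43.2, 36.3 and 28.0 CPM in *Lmx1a-/-* embryos 1 to 5. Wild-type embryo 4 was far above all others, and the remaining wild-type libraries overlapped the mutants. The log2 fold change of *Gpc3* was -1.08 (SE 0.38, FDR = 0.172) with this embryo, -0.45 (SE 0.20, FDR = 0.319) without it, and -0.06 (SE 0.41, FDR = 0.991) with the surface epithelium list as a covariate.

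The difference in *Gpc3* relative to *Gpc4* was tested as a ratio within each library, which does not depend on scaling. The log2 ratio of *Gpc3* to *Gpc4* counts was -0.71, -0.38, -0.59, 1.53 and -1.10 in wild-type embryos 1 to 5 and -1.59, -1.96, -1.32, -1.83 and -2.12 in *Lmx1a-/-* embryos 1 to 5. All mutants were below all wild-type libraries. The mean moved from -0.25 ± 1.03 to -1.76 ± 0.32, a difference of -1.52 (exact two-sided permutation test of the genotype labels, p = 0.00794, the smallest this design allows, and 0.0317 adjusted over the 4 pairs of family genes compared). Without wild-type embryo 4 the difference was -1.07 (adjusted p = 0.0317 by the exact permutation test), and without any 1 of the mutants the adjusted p was 0.0635. The other 3 pairs did not pass. The differences were -0.30 for *Sdc1* to *Sdc3* and 0.00 for *Sdc2* to *Sdc4* (adjusted exact permutation p = 0.497 and 0.984). That of *Gpc5* to *Gpc6* (adjusted exact permutation p = 0.497) cannot be read, since *Gpc5* had 0 reads in 4 libraries and the value went from 1.24 to 0.49 when 5 in place of 0.5 was added to each count.

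The 250 bases upstream of the RefSeq start are shown for *Gpc4* and *Gpc3*, the neighbours compared as a ratio. They are also shown for *Sdc1* and *Sdc4*, which share with *Gpc3* a peak in wild-type embryo 4. They are written 5′ to 3′ on the strand of the gene, from RefSeq on GRCm38.p6, and capitals mark GGGCGG on either strand, the core of a GC box.
Gpc4 promoter, chrX:52164924-52165173, minus strand: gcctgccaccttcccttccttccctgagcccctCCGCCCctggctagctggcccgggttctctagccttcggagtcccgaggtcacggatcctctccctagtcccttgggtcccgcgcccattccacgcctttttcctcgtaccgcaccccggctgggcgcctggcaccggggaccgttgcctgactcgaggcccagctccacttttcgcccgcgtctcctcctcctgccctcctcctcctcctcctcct
Gpc3 promoter, chrX:52613975-52614224, minus strand: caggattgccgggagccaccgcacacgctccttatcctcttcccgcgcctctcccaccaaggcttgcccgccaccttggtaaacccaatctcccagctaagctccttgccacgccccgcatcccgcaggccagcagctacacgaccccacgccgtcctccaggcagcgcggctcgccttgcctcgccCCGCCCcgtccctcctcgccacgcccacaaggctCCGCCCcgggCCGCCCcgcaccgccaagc
Sdc1 promoter, chr12:8771146-8771395, plus strand: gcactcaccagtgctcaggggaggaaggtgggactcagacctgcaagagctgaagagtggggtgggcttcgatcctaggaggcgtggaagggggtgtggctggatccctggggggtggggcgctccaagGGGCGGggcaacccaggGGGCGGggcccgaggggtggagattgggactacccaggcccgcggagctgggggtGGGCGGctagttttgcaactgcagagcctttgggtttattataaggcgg
Sdc4 promoter, chr2:164443189-164443438, minus strand: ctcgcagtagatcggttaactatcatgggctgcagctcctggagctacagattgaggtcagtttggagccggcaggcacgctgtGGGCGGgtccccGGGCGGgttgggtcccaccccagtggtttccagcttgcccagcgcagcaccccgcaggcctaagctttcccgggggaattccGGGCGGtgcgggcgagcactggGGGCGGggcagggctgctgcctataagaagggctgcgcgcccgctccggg
The tables held such a window for 7 of the 10 genes. By the gene bounds given here, the *Gpc4* and *Sdc4* windows lay inside the gene. The *Sdc1* and *Gpc2* windows lay partly inside it, so not all windows are upstream of the gene as counted. GGGCGG occurred once or more in the windows of all 7, with 1 match for *Gpc4*, 3 for *Gpc3*, 3 for *Sdc1* and 4 for *Sdc4*, and in 32.7% of 32851 promoters of the same length. TAATTA, the core bound by many homeodomain proteins, was in 0 of the 7 windows and in 4.84% of all promoters, and TATAAA on either strand was found in *Gpc5* alone, with 12.4% of all promoters. The 7 windows had 51.2% (*Gpc5*) to 76.4% (*Sdc3*) GC, beside a median of 52.4% over all promoters. GC content bears on how often a motif of only G and C, or only A and T, occurs. The matches describe the letters of the windows and no binding was measured.

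The other four glypicans showed no call. *Gpc6* (chr14:116925315-117976544) was at 99.96, 102, 113, 130.0 and 109 CPM in wild-type embryos 1 to 5 and at 84.1, 88.1, 82.3, 117 and 93.5 CPM in *Lmx1a-/-* embryos 1 to 5, and *Lmx1a-/-* embryo 4 alone reached the wild-type range (log2 fold change -0.25, SE 0.11, FDR = 0.259). *Gpc1* (chr1:92831645-92860779), the main glypican of neurons, ranged from 38.7 to 66.7 CPM in wild-type and from 45.6 to 82.6 CPM in mutant libraries, with wide overlap (0.30, SE 0.18, FDR = 0.440). *Gpc2* (chr5:138273655-138280005), a glypican of developing neurons, ranged from 6.42 to 9.70 and from 5.21 to 10.3 CPM (-0.15, SE 0.20, FDR = 0.774). It shares 2376 of its 4274 exon bases with the read-through gene *Gm43720* on the same strand, and reads there could belong to either, so its level is uncertain. *Gpc1* shares 977 exon bases with *Ankmy1* on the opposite strand, and the strand setting of the counting is not stated in the sources used here. *Gpc5* (chr14:115092215-116525179) had 0, 0, 9, 0 and 4 reads in wild-type embryos 1 to 5 and 1, 2, 14, 0 and 9 reads in *Lmx1a-/-* embryos 1 to 5, and was not tested. A count of 0 allows up to 3 reads, or 0.0823 to 0.155 CPM in these 4 libraries, and covers counting error only.

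*Sdc2* (chr15:32920723-33034935), a syndecan of mesenchyme and neurons, was at 34.1, 32.6, 31.1, 40.9 and 39.3 CPM in wild-type embryos 1 to 5 and at 27.2, 31.0, 28.2, 27.0 and 27.6 CPM in *Lmx1a-/-* embryos 1 to 5. The highest mutant library lay just under the lowest wild-type one, so the groups did not overlap. The means of *Sdc2* were 35.6 ± 4.28 and 28.2 ± 1.64 CPM, and at a log2 fold change of -0.34 (SE 0.10) its FDR of 0.108 missed the threshold. It passed with DESeq2 (FDR = 0.0374) and without wild-type embryo 3 (FDR = 0.0741), while without wild-type embryo 4 the log2 fold change of *Sdc2* was -0.29 (FDR = 0.209).

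*Sdc1* (chr12:8771323-8793715), the main syndecan of epithelia and also a syndecan of neural progenitors, was at 20.5, 22.9, 23.0, 38.4 and 19.9 CPM in wild-type embryos 1 to 5 and at 19.1, 15.2, 20.2, 14.7 and 15.6 CPM in *Lmx1a-/-* embryos 1 to 5. Wild-type embryo 4 was the highest, and the other wild-type libraries met the mutants at about 20.2 CPM. Its log2 fold change was -0.55 (SE 0.18, FDR = 0.139) with wild-type embryo 4, -0.35 (SE 0.13, FDR = 0.241) without it and -0.12 (SE 0.16, FDR = 0.909) with the surface epithelium list as a covariate.

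*Sdc4* (chr2:164424247-164443887), a syndecan of focal adhesions, was at 10.2, 9.88, 12.7, 25.0 and 11.2 CPM in wild-type embryos 1 to 5 and at 13.2, 9.78, 10.4, 9.06 and 9.36 CPM in *Lmx1a-/-* embryos 1 to 5. Apart from wild-type embryo 4 the genotypes overlapped. Its log2 fold change was -0.41 (SE 0.24, FDR = 0.439) with that embryo and -0.09 (SE 0.16, FDR = 0.846) without it. *Sdc3* (chr4:130792537-130826319), the syndecan best known from neurons, varied within both genotypes, from 6.09 to 19.2 CPM in wild-type and from 5.98 to 14.1 CPM in mutant libraries (log2 fold change -0.30, SE 0.30, FDR = 0.677). *Sdc3* shares 463 exon bases with antisense genes.

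**Figure D3:**
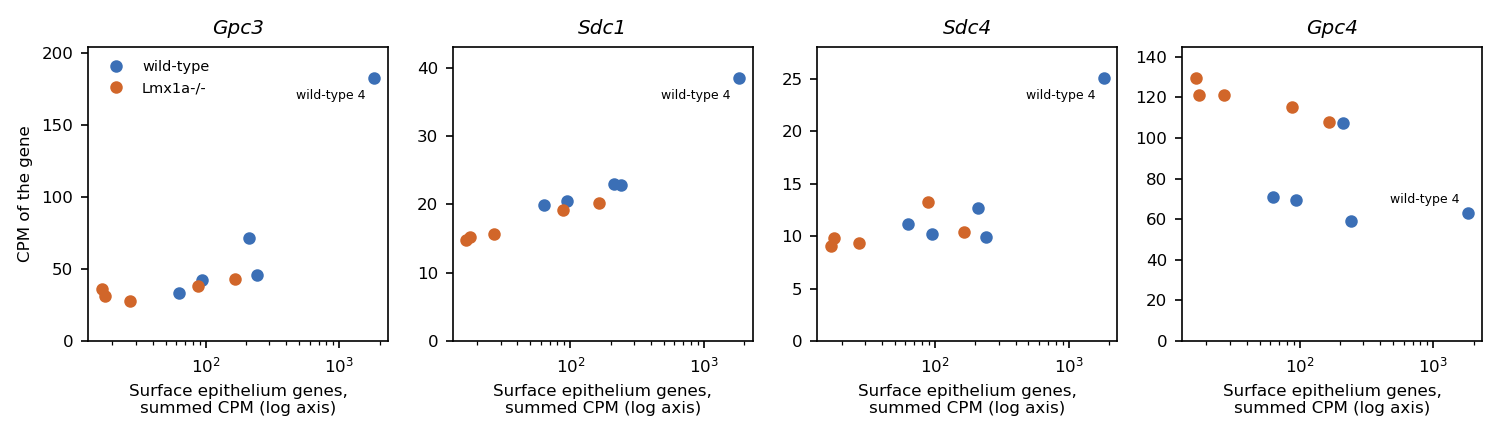
CPM of *Gpc3*, *Sdc1*, *Sdc4* and *Gpc4* (vertical axis) against the summed CPM of 11 surface epithelium genes (horizontal axis, logarithmic), with 1 point per library, wild-type in blue and *Lmx1a-/-* in orange. Wild-type embryo 4, at 1830 CPM of the list, is the highest library for *Gpc3*, *Sdc1* and *Sdc4* but not for *Gpc4*.

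**Figure D4:**
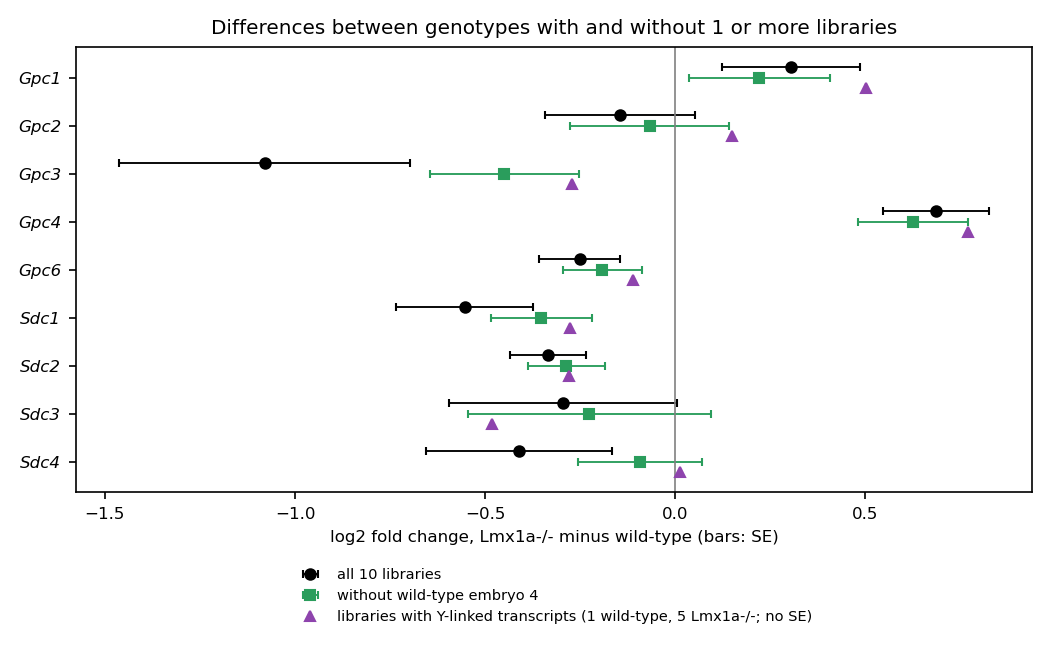
Log2 fold change of each tested gene (horizontal axis) from all 10 libraries (black) and without wild-type embryo 4 (green), with bars for the SE, and from the libraries with Y-linked transcripts (purple, 1 of them wild-type, no SE). *Gpc4* lies at 0.68, 0.63 and 0.77, whereas *Gpc3* moves from -1.08 to -0.45 and -0.27.

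The genes that build and modify HS chains numbered 33, of which 32 were tested, and 0 were lower and 0 higher past the threshold (edgeR quasi-likelihood test), beside 2.29% and 1.72% of all genes. At an unadjusted p under 0.05 there were 4 of the 32, beside 16.4% of all genes, and DESeq2 called 1 lower, *Fam20b*, beside 4.51%. The median log2 fold change of the 32 was -0.09, with 20 means lower and 12 higher. *Fam20b*, the kinase that phosphorylates the xylose that starts the chain, had the smallest p, at 27.6, 30.5, 25.9, 38.3 and 27.9 CPM in wild-type embryos 1 to 5 and 25.8, 23.7, 21.2, 24.4 and 20.6 CPM in *Lmx1a-/-* embryos 1 to 5. The groups did not overlap, with a narrow gap, and the log2 fold change of *Fam20b* was -0.37 (SE 0.12, FDR = 0.138). Without wild-type embryo 4, its highest library, it was -0.28 (FDR = 0.26). *Pxylp1*, the phosphatase that removes this phosphate, was at 35.0 ± 2.24 and 30.0 ± 3.58 CPM (FDR = 0.291).

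The polymerase gene *Ext1*, which extends the chain, averaged 317 ± 58.9 CPM for wild-type and 387 ± 51.2 CPM for mutants (log2 fold change 0.29, FDR = 0.276), and *Slc35b2*, the transporter of the sulfate donor, was at 23.0 ± 4.87 and 28.9 ± 2.66 CPM (0.33, FDR = 0.272). *Extl3*, which adds the first sugar specific to HS, was at 80.5 ± 8.69 and 73.5 ± 4.66 CPM (FDR = 0.502). The sulfotransferase genes *Ndst3*, *Hs3st5* and *Hs3st3b1* were low. *Ndst3* stood at 8.98 ± 2.91 and 6.94 ± 1.16 CPM (FDR = 0.435) and *Hs3st5* at 1.18 ± 0.919 and 2.21 ± 1.59 CPM (FDR = 0.488). *Hs3st3b1* reached 29.0 CPM in wild-type embryo 4 and 0.543 to 5.79 CPM elsewhere, and its log2 fold change went from -1.59 (FDR = 0.417) to 0.13 without that embryo.

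Of 12 genes that edit or break down HS after its synthesis, 1 was lower and 0 were higher, beside 2.29% and 1.72% of all genes, with a median log2 fold change of -0.01. The lower gene was *Sulf1*, which encodes a secreted sulfatase that removes 6-O-sulfate groups from the chains and so alters their binding of Wnts and FGFs. It was at 859, 1202, 318, 640 and 1167 CPM in wild-type embryos 1 to 5 and at 208, 199, 364, 385 and 283 CPM in *Lmx1a-/-* embryos 1 to 5. Of the wild-type libraries embryo 3 alone fell within the mutant range. The means were 837 ± 371 and 288 ± 85.8 CPM, and the log2 fold change of *Sulf1* was -1.54 (SE 0.31, FDR = 0.0209). It passed with each embryo left out in turn (-1.75 to -1.38). *Sulf1* did not pass with the choroid plexus list as a covariate (-0.56, FDR = 0.992), the *Xist* level (-1.49, FDR = 0.356) or the surface epithelium list (-1.67, FDR = 0.102). These covariates differed between the genotypes. Among all genes, 3 were lower and 0 higher with the choroid plexus list, and 26 and 2 with *Xist*. *Sulf1* passed with the mesenchyme list (-1.83, FDR = 0.0212). In the libraries with Y-linked transcripts, of which 1 is wild-type, its log2 fold change was -1.58.

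The choroid plexus list summed to between 90.1 and 356 CPM in wild-type and between 58.9 and 120 CPM in *Lmx1a-/-* libraries, and wild-type embryo 3 was the lowest wild-type library for this list and for *Sulf1*. The CH list was lowest in that library as well, at 1960 CPM. It summed to 2670 to 3670 CPM in the other wild-type and 2170 to 2830 CPM in the mutant libraries. The part of the CH list in the level of *Sulf1* was not tested. *Sulf2*, the related sulfatase, is given beside *Sulf1* as its paralog, chosen after its values were seen, and was at 739 ± 223 and 624 ± 93.1 CPM (log2 fold change -0.24, SE 0.19, FDR = 0.568). Of the lysosomal enzymes, *Gusb* was at 13.5 ± 1.39 and 16.6 ± 2.25 CPM (FDR = 0.272) and *Arsg* at 10.96 ± 3.02 and 8.60 ± 2.60 CPM (FDR = 0.544).

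Of the 4 other HS proteoglycan genes 0 passed the edgeR quasi-likelihood test, while 3 had an unadjusted p under 0.05, beside 16.4% of all genes, and DESeq2 called 2 lower, *Hspg2* and *Tgfbr3*, beside 4.51%. *Hspg2* (perlecan, of basement membranes) was at 143 ± 31.5 and 106 ± 14.3 CPM (log2 fold change -0.43, FDR = 0.155), *Tgfbr3* (betaglycan, a co-receptor for TGF-beta) at 17.8 ± 6.42 and 10.03 ± 4.37 CPM (-0.82, FDR = 0.176) and *Agrn* (agrin) at 229.9 ± 19.7 and 264 ± 23.4 CPM (0.20, FDR = 0.229). *Tgfbr3* was highest in wild-type embryo 4 (27.0 CPM). Its log2 fold change was -0.63 (FDR = 0.347) without that embryo and -0.10 (FDR = 0.939) with the surface epithelium list as a covariate. Of 7 genes for the release of glypicans and syndecans from the membrane, 0 passed with edgeR's quasi-likelihood test or DESeq2. An unadjusted p under 0.05 was found for 1 of the 7, beside 16.4% of all genes. Among them were *Furin*, a protease that cleaves glypicans (15.1 ± 2.57 and 11.2 ± 1.87 CPM, FDR = 0.210), *Adam10*, a sheddase (107 ± 7.41 and 115 ± 7.30 CPM, FDR = 0.552), and *Gdpd2*, a phosphodiesterase (18.9 ± 2.54 and 21.0 ± 3.95 CPM, FDR = 0.650). Of 8 genes for partners of the syndecan tail 0 passed the quasi-likelihood test, and 1 had an unadjusted p under 0.05, beside 16.4% of all genes. DESeq2 called 1 lower, beside 4.51%. This was *Tiam1*, a Rac activator, with 69.7 CPM in wild-type embryo 4 and means of 44.7 ± 14.2 and 31.7 ± 4.78 CPM. Its log2 fold change was -0.49 (FDR = 0.183), and -0.28 (FDR = 0.317) without that embryo. *Gipc1*, a scaffold, was at 27.8 ± 3.83 and 21.0 ± 6.59 CPM (FDR = 0.327) and *Pdcd6ip* (Alix) was at 102 ± 6.10 and 92.5 ± 4.77 CPM (FDR = 0.371).

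Of 9 genes for proteins that bind HS chains or glypicans at the cell surface, 1 was lower and 1 was higher, beside 2.29% and 1.72% of all genes. Both are leucine-rich repeat proteins of synapses whose partners include HS proteoglycans. *Lrrtm3* was at 28.0, 47.3, 16.4, 29.6 and 34.9 CPM in wild-type embryos 1 to 5 and at 7.65, 6.58, 10.6, 16.5 and 12.1 CPM in *Lmx1a-/-* embryos 1 to 5 (log2 fold change -1.54, SE 0.28, FDR = 0.0121). The groups touched only where wild-type embryo 3 met *Lmx1a-/-* embryo 4. *Lrrtm4*, which binds *Gpc4* protein, was low, at 1.75, 1.17, 1.09, 0.519 and 1.92 CPM in wild-type embryos 1 to 5 and at 3.06, 3.75, 3.68, 4.13 and 2.05 CPM in *Lmx1a-/-* embryos 1 to 5.

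All mutants were above all wild-type libraries for *Lrrtm4* (log2 fold change 1.36, SE 0.35, FDR = 0.0643), and the call held in 6 of the 10 fits without 1 embryo, with an FDR of 0.0582 to 0.153. *Lrrtm3* passed in 10 of the 10. With the *Xist* covariate the log2 fold change of *Lrrtm3* was -1.29 (FDR = 0.385) and with the choroid plexus covariate -0.87 (FDR = 0.992), neither past the threshold. *Lrrtm3* passed with the mesenchyme (-1.87, FDR = 0.0121) and surface epithelium (-1.67, FDR = 0.0933) covariates. In the libraries with Y-linked transcripts, of which 1 is wild-type, its log2 fold change was -1.39. *Lrrtm4* did not pass with the *Xist* (0.85, FDR = 0.721), choroid plexus (1.20, FDR = 0.992), mesenchyme (1.09, FDR = 0.383) or surface epithelium (0.97, FDR = 0.470) covariate. Nor did it pass without wild-type embryos 3 and 4 (1.04, FDR = 0.167), and its log2 fold change was 0.92 in the libraries with Y-linked transcripts. *Ptprz1*, a receptor phosphatase that is itself a proteoglycan, averaged 135 ± 18.8 CPM for wild-type and 243 ± 122 CPM for mutants, with 453 CPM in *Lmx1a-/-* embryo 5 (0.85, SE 0.25, FDR = 0.104).

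**Figure D5:**
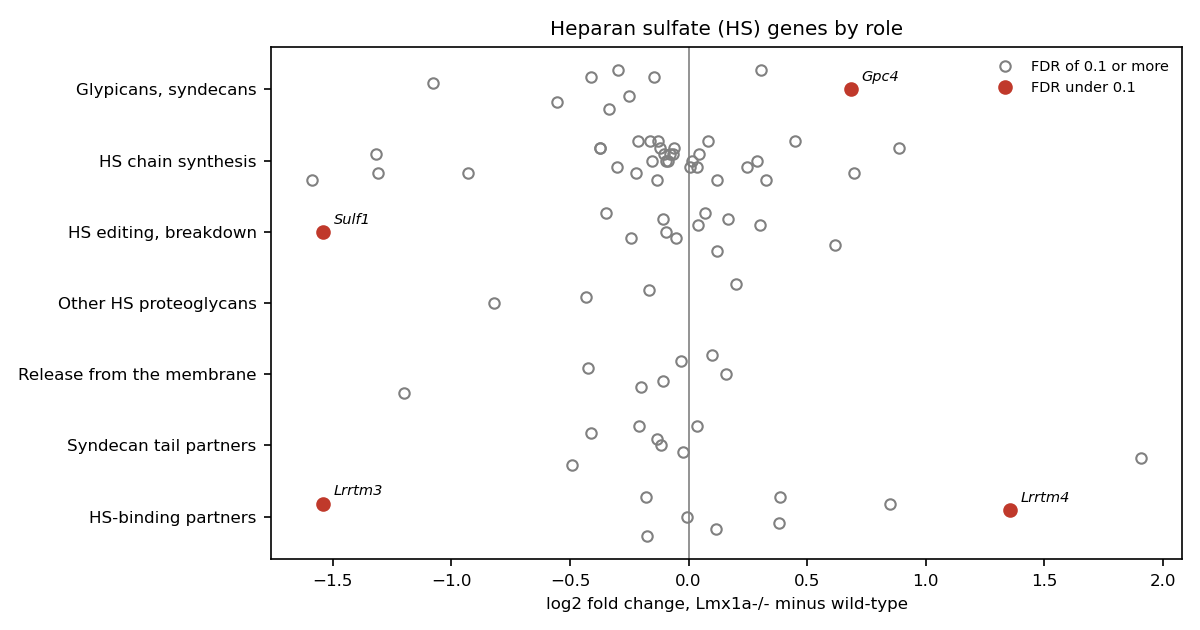
Log2 fold change (horizontal axis) of the tested genes in 7 lists by role, with 1 point per gene and filled red points for an FDR under 0.1. *Gpc4* (0.68), *Sulf1* (-1.54), *Lrrtm3* (-1.54) and *Lrrtm4* (1.36) are the genes past the threshold.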

How the data were processed

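RNA-seq libraries of CH tissue isolated by laser capture were made at e13.5 from 5 *Lmx1a-/-* and 5 wild-type embryos, grouped by the genotype in the labels, with 1 library per embryo. The authors prepared libraries with a SMARTer kit, used Trimmomatic for trimming, STAR 2.7.1a for alignment to GRCm38 and HTSeq 0.11.2 for counting reads per Ensembl gene, and deposited raw counts without normalization, per the labels and the methods of the study. No molecular identifiers are stated, so reads are not independent molecules. The table has 52508 rows, of which 281 repeat another and were used once, and mitochondrial genes took 20.6% to 27.6% of the counts.

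A minimum of 10 counts in 3 or more libraries was required, and genotypes were compared by edgeR 4.0.16 (TMM scaling, quasi-likelihood test, legacy = TRUE) in R 4.3.3 over all genes kept, with Benjamini-Hochberg adjustment and an FDR under 0.1, as in the study's filter and threshold. Standard errors were derived from the fold change and its F statistic (fold change over root F). P-values measure the spread between these embryos. CPM are TMM-scaled, TPM used exon lengths of GENCODE annotation of GRCm38, and ratios within libraries used counts with 0.5 added and an exact permutation test. Promoter windows came from RefSeq. Alternatives were a likelihood ratio test, DESeq2 1.42.0, legacy = FALSE, other scalings and filters, mitochondrial genes left out, a replicate block, covariates for *Xist*, choroid plexus and mesenchyme, the libraries with Y-linked transcripts alone, an FDR under 0.05 and each embryo left out. A surface epithelium covariate, wild-type embryos 3 and 4 both left out and unshared exon length were added after seeing the data. The fits were tested on simulated counts. Named were all 10 family genes, the 8 HS chain genes and the 3 genes of each other pathway list with the smallest p, *Lmx1a*, *Xist*, genes that show a cell type, and the 3 genes most like *Gpc4*. The family genes and lists were chosen with earlier results of these data known.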

Additional observations from a re-analysis of the deposited data

Results flagged for a closer look

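In 8 of 64 groups of 5 libraries (32 genes, 2 genotypes) the highest or lowest library was farther from the rest than Dixon's 95% critical value of 0.71 allows. That value is set for 1 in 20 of independent groups with normally spread values. The genes share the same libraries and many were chosen by their p, so no excess over 1 in 20 can be read. The share of all genes flagged was not counted. Of the 8 flagged groups, 5 were wild-type embryo 4. Its level of *Gpc3* was 182 CPM against 33.1 to 71.4 CPM in the other wild-type libraries (gap over range 0.743), of *Sdc1* 38.4 against 19.9 to 23.0 CPM (0.835) and of *Sdc4* 25.0 against 9.88 to 12.7 CPM (0.813). *Hs3st3b1* was at 29.0 against 0.821 to 4.06 CPM (0.885) and *Tiam1* at 69.7 against 35.6 to 42.1 CPM (0.811) in the same library.

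*Gpc4* in wild-type embryo 3 was at 107 against 59.1 to 71.0 CPM (gap over range 0.753). *Gusb* in wild-type embryo 1 was at 15.9 against 12.4 to 13.1 CPM (0.788). *Adam10* in *Lmx1a-/-* embryo 5 was at 102 against 116 to 121 CPM (0.76).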

How the results depend on the processing

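The number of lower family genes went from 0 to 2 with a likelihood ratio test, 2 with DESeq2, 1 with legacy = FALSE and 1 with a filter of at least 1 CPM in at least 5 libraries, and ranged from 0 to 1 with an embryo left out (1, *Sdc2*, without wild-type embryo 3). The number of higher family genes went from 1 to 0 with the *Xist*, choroid plexus or surface epithelium covariate, and was 1 to 1 with an embryo left out. HS chain genes that were lower went from 0 to 1 with DESeq2 and to 1 (*Ext2*, named after its values were seen) without wild-type embryos 3 and 4. The cause was not tested. The difference in the log2 ratio of *Gpc3* to *Gpc4* ranged from -1.73 to -1.07 with an embryo left out, and of *Sdc2* to *Sdc4*, 0.00 with all embryos, it turned to -0.0374 and -0.183 on leaving out wild-type embryo 3 or 4, and to -0.0489, -0.0272 and -0.0231 on leaving out *Lmx1a-/-* embryo 2, 4 or 5, within a range of -0.183 to 0.107. The sign turned for *Gpc2* with the *Xist* (0.189), choroid plexus (0.0887) and surface epithelium (0.155) covariates and in the libraries with Y-linked transcripts (0.15), for *Sdc3* with the mesenchyme (0.365) and surface epithelium (0.0589) covariates and without wild-type embryos 3 and 4 (0.119), and for *Sdc4* with *Xist* (0.0466), surface epithelium (0.109) and in the libraries with Y-linked transcripts (0.0131). For *Hs3st3b1* it turned with *Xist* (1.94), choroid plexus (0.44) and surface epithelium (1.70), without wild-type embryos 3 and 4 (0.57), in the libraries with Y-linked transcripts (1.60) and without wild-type embryo 4 (0.128, the top of a range from -2.16 with an embryo left out). The level of *Gpc6* was 53.5 TPM per length of its longest transcript.

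With the embryo number as a replicate block the pairing was not borne out, since same-numbered embryos correlated at -0.163 to 0.0448 across 16717 genes. The block gave 353 lower and 248 higher genes and *Gpc4* at 0.72 (FDR = 0.0522). The *Gpc3* to *Gpc4* difference was -1.52 (exact permutation p = 0.25, adjusted over the 4 pairs of genes). With 5 pairs of embryos the unadjusted p of this test cannot fall under 0.05.

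Over all genes, the 497 lower and 373 higher became 805 and 555 with a likelihood ratio test, 976 and 790 with DESeq2, 663 and 519 with legacy = FALSE, 26 and 2 with *Xist*, 3 and 0 with choroid plexus, 220 and 108 with mesenchyme, 130 and 61 with surface epithelium, 86 and 44 in the libraries with Y-linked transcripts, and 261 to 604 and 190 to 455 with an embryo left out.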
